A study of Mus musculus with 6 samples.

Results

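Nr4a1, Nr4a2, Nr4a3, Egr1, Egr2 and Egr3 are transcription factor genes that T cells switch on within minutes to hours of a stimulus. These 6 genes were chosen by name, and all of their 15 probe sets in the deposited array table were taken, out of 18193 genes named by the platform's annotation. The arrays held RNA of regulatory T cells (Tregs), which hold immune responses in check, sorted as CD4+CD25+FoxP3+ cells from the spleen and lymph nodes of C57Bl/6 mice of 8 to 11 weeks that carry a FoxP3GFP reporter. There were 3 groups of 2 arrays, all from cells cultured for 18 h: wild-type (A2AR+/+FoxP3GFP) cells with the DMSO vehicle, called WT vehicle, A2AR-/-FoxP3GFP cells with vehicle, called KO vehicle, and wild-type cells given 10 nM ATL1222, called WT ATL1222. A2AR is an adenosine receptor, and the labels describe ATL1222 as an agonist selective for it. The labels name no cell restriction for the A2AR deletion. They speak of biological replicates without saying if different animals were used, and a p-value covers no more than the spread among the 6 arrays, which may be technical.

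The Nr4a genes encode orphan nuclear receptors that act without a known hormone ligand, and Nr4a1 and Nr4a2 can also pair with retinoid X receptors. The Egr genes encode zinc finger factors that are held in check by the Nab corepressors. In T cells both families are induced by the antigen receptor through calcium and ERK signalling. The Nr4a genes are also classic targets of cAMP, which A2AR raises through a stimulatory G protein, by way of protein kinase A and CREB bound to cAMP response elements (CREs). Nr4a factors help to keep up Foxp3 in Tregs, and Egr2 and Egr3 restrain T cell activation.

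The promoters of the 3 Nr4a genes are shown first because Nr4a3 and Nr4a2 gave the calls among the 6 genes, with Nr4a1 as their relative, and because the CRE bears on an agonist of a cAMP-raising receptor. RefSeq's table for build GRCm38.p6 held 4 of the 6 genes, Nr4a1, Nr4a2, Nr4a3 and Egr2. In each sequence, read 5′ to 3′ in the direction of the gene, capitals mark the CRE core, TGACG, or CGTCA where it lies on the opposite strand. For Nr4a1 and Nr4a2 all 250 bases before the transcription start are given (chr15:101266596-101266845, plus strand, and chr2:57124004-57124253, minus strand). For Nr4a3 there are 2 stretches of 30 bases (chr4:48045084-48045113 and chr4:48045146-48045175, plus strand).
Nr4a1: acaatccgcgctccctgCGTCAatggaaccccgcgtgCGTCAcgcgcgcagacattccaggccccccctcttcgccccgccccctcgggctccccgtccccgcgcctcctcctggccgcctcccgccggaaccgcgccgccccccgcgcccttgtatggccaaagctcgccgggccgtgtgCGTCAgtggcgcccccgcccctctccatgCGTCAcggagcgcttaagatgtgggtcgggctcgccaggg
Nr4a2: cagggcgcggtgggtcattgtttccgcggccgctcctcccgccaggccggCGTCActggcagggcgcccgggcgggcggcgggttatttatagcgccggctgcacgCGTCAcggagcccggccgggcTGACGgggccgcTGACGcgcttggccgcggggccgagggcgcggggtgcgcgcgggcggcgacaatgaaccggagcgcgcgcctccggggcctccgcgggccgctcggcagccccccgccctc
Nr4a3, 221 bases before the start: tcccatgtCGTCAcatTGACGtctcgcatt
Nr4a3, 159 bases before the start: ctgtggcataaaTGACGtgccgagagagcg

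Each of the 3 Nr4a windows of 250 bases held 4 CRE cores, counted on both strands. Among the 32851 different windows of the same length in the table, 17.8% held at least 1 core, 3.90% at least 2, 0.688% at least 3 and 0.137%, or 45 windows, at least 4. The cores began 233, 213, 69 and 40 bases before the start of Nr4a1, 200, 144, 123 and 111 before that of Nr4a2, and 231, 213, 205 and 147 before that of Nr4a3. In Nr4a1 all 4 lay on the opposite strand. The full palindromic CRE, TGACGTCA, which counts as 2 cores, was in none of the 3 windows and in 1.55% of all windows. The Nr4a element AAAGGTCA (1.34% of all windows) and the Egr element GCGTGGGCG (0.536%) were in none of the windows of these genes. Egr2 has 5 listed starts, of which 3 had 2 cores and the other 2 had 0. A serum response element is the site through which ERK signalling reaches many early genes. It was searched as the exact letters CCWWWWWWGG, with W for A or T, and near matches were not counted. It lay before 4 of the 5 starts of Egr2, in no Nr4a window, and in 1.47% of all windows. Before the 3 starts of Egr2 with cores, the cores and this element kept the same spacing, so these windows may share the same sites. The shares are over all windows and were not matched for base composition. A match is a run of letters and not a measured binding site.

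**Figure D1:**
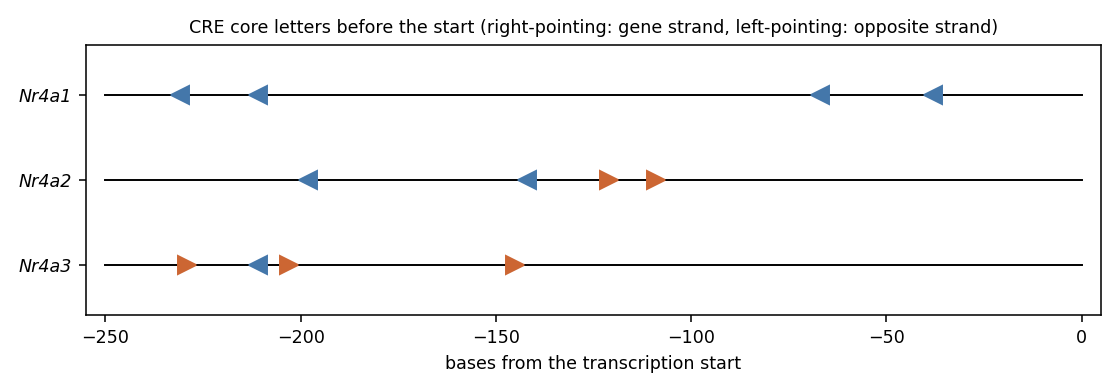
Positions of the CRE core in the 250 bases before the transcription start of Nr4a1, Nr4a2 and Nr4a3 (x axis, bases from the start). Each triangle is 1 match, pointing right on the strand of the gene and left on the opposite strand. Each gene has 4 matches.

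The arrays were scaled by the authors to the same trimmed mean, and their median signals ran from 74.68 to 98.17. Genes whose mean lay in the lowest 40% of all genes, a signal below about 71.2, were not tested. This left 10916 genes, with 4 of the 6 described here among them, and Egr2 and Egr3 below the limit. Of 8 markers of T cells and Tregs, 7 were above the limit, with Ikzf2, a Treg transcription factor, at 6810 to 8431, and Foxp3 itself was listed at 7.181 to 53.5. Of 4 measured B cell markers 3 were above it, of 5 myeloid markers 1, of 4 dendritic cell markers 0, and of 4 CD8 T and NK cell markers 1. Above it were Cd79b (186.8 to 258.7), Ms4a1 (150 to 242.5) and Ighm (4198 to 7539) of the B cell list. Csf1r of the myeloid list (63.33 to 121.9) and Cd8b1 of the CD8 T and NK list (118.4 to 249.1) were also above it. Cd79a, Lyz2, Itgax and Gzmb were among those with means below it. In bulk RNA, fewer cells that express a gene and less RNA of it per cell cannot be told apart.

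Of the 4 genes tested, Nr4a3 and Nr4a2 had both agonist arrays above all vehicle arrays. The mean of Nr4a1 was also highest in the agonist group, but the agonist differences of Nr4a1 and Egr1 were smaller and did not pass. All arrays were from 18 h of culture, and earlier changes of these genes were not measured. Differences are given as log2(signal + 16), which understates the change of dim genes, and were tested with limma over all genes in 1 fit of the 6 arrays, with p-values adjusted by the Benjamini-Hochberg method at a threshold of 0.05. A signal is not compared between genes, since probe sets differ in how they bind.

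In KO vehicle against WT vehicle 0 of the 4 genes fell or rose, both by group alone and with the replicate number as a block, where 0.0275% and 0.0824% of all genes fell. At an unadjusted p under 0.05 there were 0 by group alone and 1, Nr4a1, with the block, beside 3.89% and 6.96% of all genes. With the agonist against WT vehicle 0 of 4 rose by group alone and 1 (Nr4a3) with the block, beside 0.202% and 0.678% of all genes. At an unadjusted p under 0.05 there were 2, Nr4a2 and Nr4a3, in each of these fits, beside 5.03% and 8.00% of all genes. Against KO vehicle 1 of 4 (Nr4a3) and 2 of 4 (Nr4a2 and Nr4a3) rose, beside 0.879% and 1.88% of all genes. For Nr4a2 and Nr4a3 the agonist arrays lay above those of either vehicle group without overlap. Taken 1 vehicle group at a time, this held for 14.5% of all genes against WT vehicle and 17.4% against KO vehicle. The share of genes for which both held was not counted. Both agonist comparisons share the WT ATL1222 arrays and are no separate support for each other. WT ATL1222 and KO vehicle differ in genotype as well as in the agonist, and no knockout cells with the agonist were measured. Differences against KO vehicle, also called agonist differences here, therefore cannot be ascribed to the agonist alone.

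Nr4a3, which encodes the receptor NOR1, was measured by 3 probe sets, of which 1 was above the limit. That one had signals of 347.2 and 249.0 on the 2 WT vehicle arrays (replicates 1 and 2), 355.5 and 196.5 in KO vehicle, and 824.8 and 602.0 in WT ATL1222. Both agonist arrays lay above all 4 vehicle arrays, and KO vehicle overlapped WT vehicle. Against WT vehicle, the agonist difference was 1.22 ± 0.28 (SE) on the log2 scale, or 2.32-fold, with 95% confidence interval 0.625 to 1.808. It did not pass in the fit by group alone (limma adjusted p = 0.128). It passed with the replicate number as a block (log2 SE 0.19, limma adjusted p = 0.00543). Arrays with the same replicate number shared a deviation across genes, so both fits are given. Within replicate 1 the agonist difference was 1.21 and within replicate 2 it was 1.22.

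Against KO vehicle, Nr4a3 was 2.57-fold higher in WT ATL1222, by 1.36 ± 0.28 on the log2 scale (limma adjusted p = 0.0298, and 9.13e-04 with the replicate block). Within replicates 1 and 2 the differences were 1.18 and 1.54. The call in the fit by group alone was lost without KO vehicle replicate 2 (log2 0.96, limma adjusted p = 0.239) and without WT ATL1222 replicate 1 (1.14, limma adjusted p = 0.344). It was also lost with no filter on dim genes, without the variance trend, after quantile normalization, with probe sets averaged and with every probe set tested separately.

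Nr4a2, which encodes NURR1, was measured by 6 probe sets, of which 4 were above the limit. The brightest, 1447863_s_at, had signals of 363.3 and 421.2 in WT vehicle, 391.1 and 309.5 in KO vehicle, and 781.6 and 597.4 in WT ATL1222. Both agonist arrays were again above all 4 vehicle arrays. Against WT vehicle the difference was 0.78 ± 0.21 on the log2 scale, or 1.72-fold, with 95% confidence interval 0.33 to 1.23. It passed in neither fit (limma adjusted p = 0.323, and 0.0994 with the replicate block). Against KO vehicle it was 0.94 ± 0.21, or 1.92-fold, which missed the threshold by group alone (limma adjusted p = 0.0537) and passed with the replicate block (limma adjusted p = 0.0154). The difference against KO vehicle was 0.97 within replicate 1 and 0.91 within replicate 2.

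The other 3 Nr4a2 probe sets above the limit were also higher with the agonist, on both arrays and against both vehicle groups. Probe set 1455034_at had signals of 272.8 and 162.8 in WT vehicle, 89.62 and 116.9 in KO vehicle, and 466.4 and 480.0 in WT ATL1222. Here the 3 groups did not overlap, and KO vehicle was lowest. Probe set 1450750_a_at showed the same order, at 169.3 and 168.0 in WT vehicle, 82.83 and 100.4 in KO vehicle, and 324.1 and 297.6 in WT ATL1222. Probe set 1450749_a_at was at 77.29 and 93.27 in WT vehicle, 155.5 and 56.59 in KO vehicle, and 219.2 and 214.3 in WT ATL1222, so that the vehicle groups overlapped.

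Each of these probe sets was then tested with the 23710 probe sets above the limit. Against KO vehicle, 1455034_at was 4.13-fold higher in WT ATL1222 (log2 2.05 ± 0.29, limma adjusted p = 0.0130) and 1450750_a_at 3.04-fold (1.61 ± 0.28, limma adjusted p = 0.0378). Thus 2 of 4 passed by group alone, beside 0.346% of all probe sets. With the replicate block 3 of 4 rose, beside 0.907%, the further one being 1447863_s_at (limma adjusted p = 0.0380). Against WT vehicle the 4 probe sets had log2 differences from 0.78 to 1.21, and 0 of 4 passed in either fit. Of all probe sets, 0.0380% rose by group alone and 0.308% with the block. All 4 had an unadjusted p under 0.05 in both fits, beside 5.03% and 8.00% of all genes at 1 probe set each. The 4 probe sets read 1 gene on the same arrays and are no separate support for each other. In KO vehicle against WT vehicle they disagreed: 1455034_at lay at -0.94 ± 0.29 and 1450750_a_at at -0.78 ± 0.28, whereas 1447863_s_at lay at -0.16 ± 0.22 and 1450749_a_at at 0.14 ± 0.42, and 0 passed in either fit (limma adjusted p from 0.666 to 1.00). By group alone 2 had an unadjusted p under 0.05, beside 3.89% of all genes. Of all probe sets, 0 passed as lower by group alone, against 0.0464% with the block. For 1455034_at and 1450750_a_at both KO vehicle arrays lay below both WT vehicle arrays, as did 13.7% of all genes. Which transcripts of Nr4a2 each probe set reads was not tested.

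**Figure D2:**
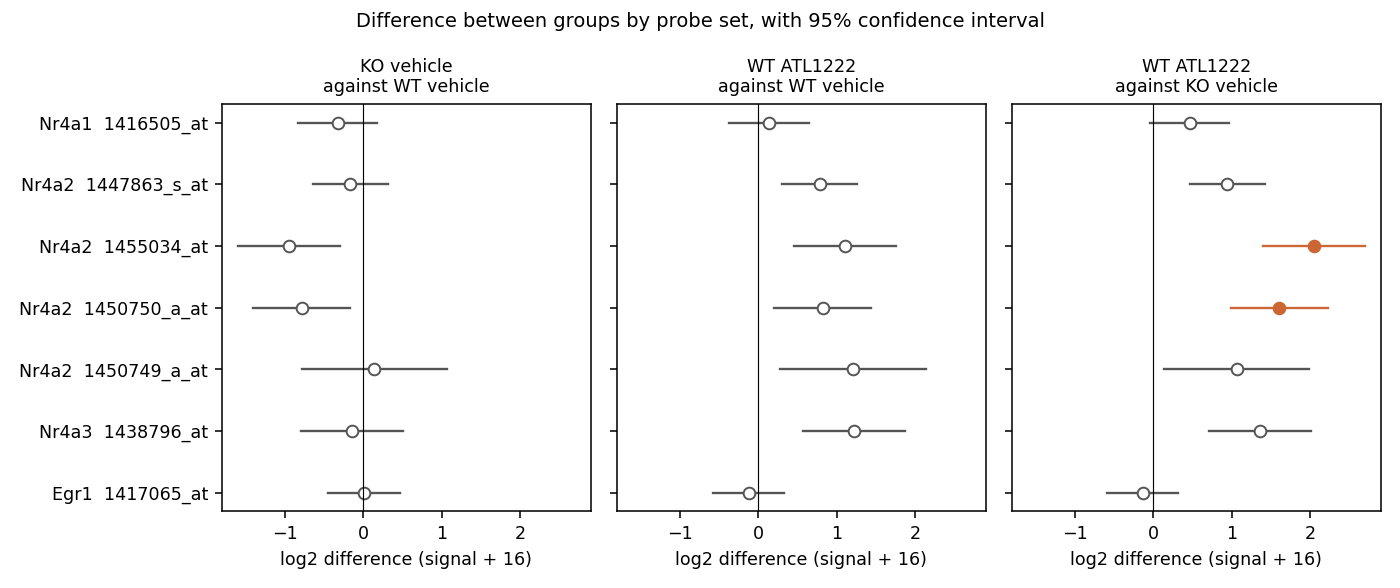
Difference between groups on the log2(signal + 16) scale (x axis) for the 7 probe sets above the limit, in the fit of every probe set by group alone. Points are estimates, lines 95% confidence intervals, and filled orange points passed limma's adjusted p of 0.05. The 4 Nr4a2 probe sets and that of Nr4a3 lie to the right of 0 in both agonist comparisons, while only 1455034_at and 1450750_a_at of Nr4a2 passed, against KO vehicle.

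Nr4a1, which encodes NUR77 and is widely used as a reporter of antigen receptor signalling, had signals of 973.5 and 743.8 in WT vehicle, 855.1 and 534.9 in KO vehicle, and 1012 and 871.5 in WT ATL1222. Replicate 1 was above replicate 2 in each group, and WT ATL1222 overlapped WT vehicle. The agonist difference against WT vehicle was 0.14 ± 0.22 on the log2 scale (limma adjusted p = 0.998), with 95% confidence interval -0.33 to 0.61. Against KO vehicle it was 0.46 ± 0.22 (limma adjusted p = 0.594, and 0.136 with the replicate block), with no overlap between these groups. KO vehicle lay at -0.32 ± 0.22 from WT vehicle (95% confidence interval -0.79 to 0.14, limma adjusted p = 1.00). Whether Nr4a1 differed from Nr4a2 or Nr4a3 in its change was not tested.

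Egr1, a zinc finger factor that ERK signalling induces, had signals of 456.2 and 495.5 in WT vehicle, 504.3 and 455.8 in KO vehicle, and 377.9 and 501.3 in WT ATL1222. The 3 groups overlapped. The agonist difference was -0.12 ± 0.20 against WT vehicle (95% confidence interval -0.55 to 0.31) and -0.13 ± 0.20 against KO vehicle (-0.57 to 0.30), and KO vehicle lay at 0.01 ± 0.20 from WT vehicle (-0.42 to 0.44). None of these 3 passed (limma adjusted p from 0.934 to 1.00).

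Egr2 and Egr3, relatives of Egr1 that limit T cell activation, were near the dim end of the arrays. The brighter probe set of Egr2 had signals of 41.34 and 59.71 in WT vehicle, 88.38 and 49.97 in KO vehicle, and 51.60 and 27.30 in WT ATL1222. That of Egr3 had 72.74 and 42.63 in WT vehicle, 111.9 and 17.83 in KO vehicle, and 23.42 and 40.66 in WT ATL1222. Arrays of 1 group stood far apart for Egr3, and for Egr2 KO vehicle replicate 1 was the only array above the limit. With no filter, the agonist difference against WT vehicle was -0.28 ± 0.55 for Egr2 and -0.61 ± 0.67 for Egr3 on the log2 scale. The 95% confidence intervals, -1.47 to 0.91 and -2.06 to 0.84, were wide. The log2(signal + 16) scale also understates changes of such dim genes. The second probe sets, at 2.169 to 33.69 for Egr2 and 15.75 to 35.56 for Egr3, were dimmer still. The remaining 2 of Nr4a2 and 2 of Nr4a3 were dim as well, with signals between 2.135 and 97.14 and overlapping groups. With no filter, those of Nr4a3 lay at -0.41 ± 0.56 and -0.62 ± 0.55 with the agonist against WT vehicle. Those of Nr4a2 lay at 0.58 ± 0.75 and 0.04 ± 0.52.

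**Figure D3:**
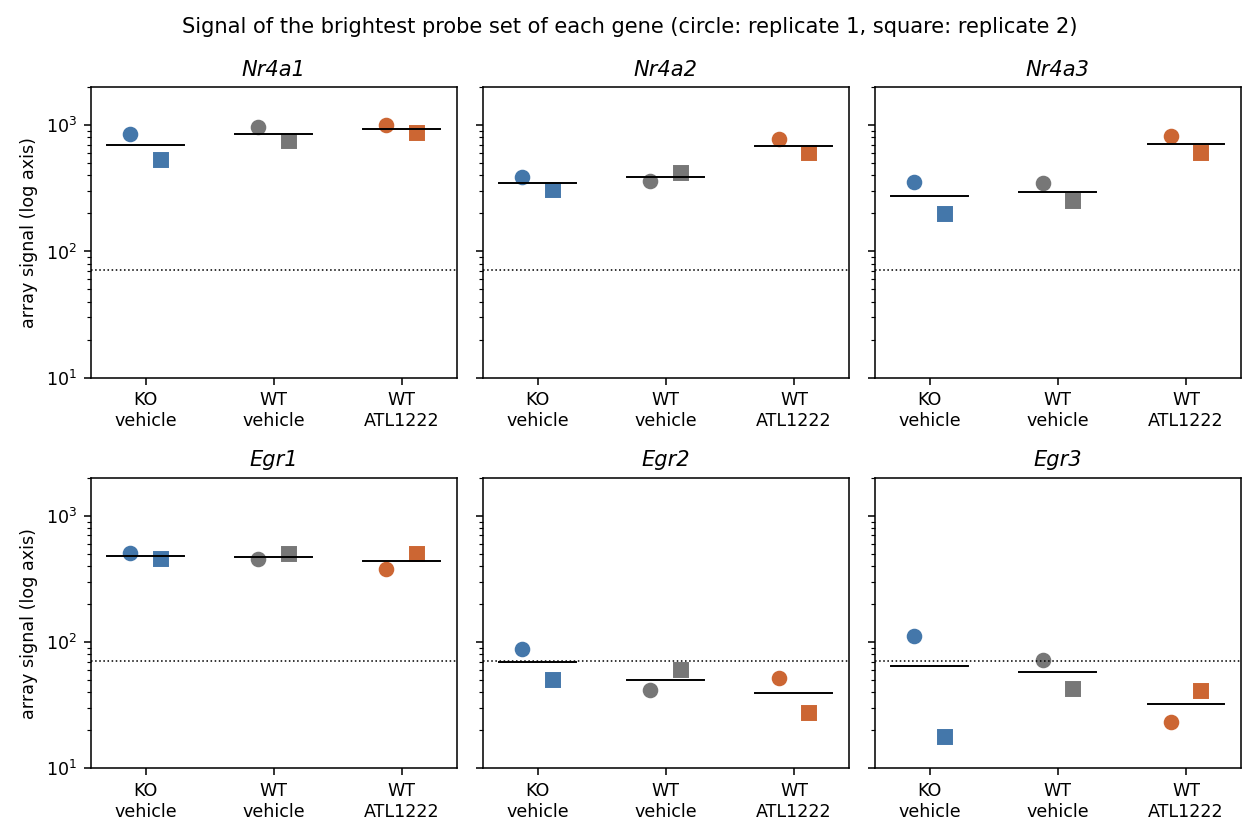
Array signal (log axis) of the brightest probe set of each of the 6 genes in KO vehicle, WT vehicle and WT ATL1222. Circles are replicate 1, squares replicate 2, black bars group means of 2 arrays, and the dotted line is the limit for dim genes at 71.2. For Nr4a2 and Nr4a3 both agonist arrays lie above the 4 vehicle arrays, and Egr2 and Egr3 lie around the limit.

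Some summed marker signals also differed between the groups. Those of T cells and Tregs were 28110 to 33290 in WT ATL1222, 23840 to 30500 in WT vehicle and 23380 to 24010 in KO vehicle. Those of B cells, in which Nr4a and Egr genes are also inducible, were 4721 to 4807, 6859 to 7948 and 7363 to 7557 in the same order, nearly all of it Ighm, so that the agonist arrays were lowest. Those of myeloid cells were 212.6 to 268.8, 189.3 to 392.8 and 270.6 to 290.6, those of dendritic cells 169.6 to 189.7, 140.7 to 145.9 and 104.9 to 121.7, and those of CD8 T and NK cells 287.3 to 288.9, 227.4 to 242.2 and 369.5 to 448.9. The T cell and myeloid sums of the agonist arrays overlapped those of WT vehicle, and the other 3 sums did not. Their part in the Nr4a differences was not tested.

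The partners and corepressors of these factors did not pass in any comparison. The list had 6 tested genes of 10, and 0 passed with or without the block. At an unadjusted p under 0.05 by group alone there were 0 in KO vehicle against WT vehicle, 0 with the agonist against WT vehicle and 1 against KO vehicle. Of all genes, 3.89%, 5.03% and 8.48% had such a p. Median log2 differences were -0.10, 0.14 and 0.16 in that order, against 0.005, -0.008 and -0.022 over all genes. Rxra, a retinoid X receptor that Nr4a1 and Nr4a2 pair with, lay at 0.59 ± 0.32 in KO vehicle against WT vehicle (limma adjusted p = 1.00), and its relative Rxrb at -0.21 ± 0.18. With the agonist against WT vehicle the orphan receptor Nr2f6 lay at 0.49 ± 0.37 and the corepressor Nrip1 at 0.16 ± 0.14, neither of which passed (limma adjusted p = 0.998 for both). The Egr corepressors Nab1 and Nab2 lay at 0.05 and 0.12 in that comparison.

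Of 20 tested upstream regulators of 23 listed, 1 changed in each comparison, and it was Crem, a cAMP-responsive factor that binds CREs. Its signals were 2093 and 1273 in WT vehicle, 566.3 and 462.5 in KO vehicle, and 6797 and 5925 in WT ATL1222, with no overlap between any groups. It fell in the knockout (log2 -1.64 ± 0.20, limma adjusted p = 0.00484) and rose with the agonist (1.95 ± 0.20, limma adjusted p = 9.69e-04). By group alone 0.0275% of all genes fell in the knockout, and 0.202% and 0.879% rose in WT ATL1222 against WT and KO vehicle. The list's median differences were -0.04 in the knockout and 0.03 with the agonist against WT vehicle. The CREB gene Creb1 lay at -0.04 and -0.01, and Srf, which binds the serum response element, at -0.04 and 0.39, none of which passed. In the knockout, beside the -1.64 of Crem, the brightest probe sets of Nr4a2 and Nr4a3 lay at -0.16 and -0.14, and the other 3 tested probe sets of Nr4a2 at -0.94, -0.78 and 0.14.

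A few of the other immediate early genes rose with the agonist. Of 18 tested genes of 21, the agonist raised 1 against WT vehicle by group alone and 4 with the replicate block, beside 0.202% and 0.678% of all genes. The 1 by group alone was the AP-1 gene Fosl2 (log2 1.60 ± 0.23, limma adjusted p = 0.00840). The further 3 were the MAP kinase phosphatase gene Dusp1 (0.97 ± 0.13, limma adjusted p = 0.00166), the AP-1 gene Junb (1.01 ± 0.17, limma adjusted p = 0.0106) and Ier2 (0.75 ± 0.11, limma adjusted p = 0.00453). Against KO vehicle 4 rose by group alone and 7 with the block, beside 0.879% and 1.88% of all genes. The 4 by group alone were Fosl2 (2.43 ± 0.23), Dusp1 (1.65 ± 0.21), Fos (1.46 ± 0.25) and Junb (1.30 ± 0.24), with limma adjusted p from 1.02e-04 to 0.0190. Fos signals were 231.7 and 193.2 in WT vehicle, 148.9 and 116.5 in KO vehicle, and 401.0 and 380.7 in WT ATL1222, with no overlap between any groups. In the list 11 of 18 genes had a positive difference with the agonist against WT vehicle, and its median was 0.075. Several early genes lay on the other side of 0, among them Zfp36 at -0.36, Myc at -0.24 and Atf3 at -0.40, and none of these passed. In KO vehicle against WT vehicle 0 passed in either fit, and Fosl2 (-0.83 ± 0.23) and Dusp1 (-0.68 ± 0.21) had the smallest p. By group alone 4 of 18 had an unadjusted p under 0.05 in the knockout, 6 with the agonist against WT vehicle and 8 against KO vehicle, beside 3.89%, 5.03% and 8.48% of all genes.

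Among genes that Egr2 and Egr3 control in T cells, 1 of 11 tested genes of 15 passed with the agonist by group alone, beside 0.202% of all genes against WT vehicle and 0.879% against KO vehicle. This was Bcl6, a transcriptional repressor that Egr2 can induce. It rose with the agonist against WT vehicle (log2 0.92 ± 0.15, limma adjusted p = 0.0199) and was higher in WT ATL1222 than in KO vehicle (1.45 ± 0.15, limma adjusted p = 1.56e-04). The ubiquitin ligase gene Cblb, an anergy gene, rose against KO vehicle with the replicate block only (0.52 ± 0.11, limma adjusted p = 0.0181, and 0.158 by group alone). The diacylglycerol kinase genes Dgka and Dgkz lay on the other side of 0 against KO vehicle, at -0.38 ± 0.14 and -0.29 ± 0.13. They passed in neither fit (limma adjusted p = 0.382 and 0.546 by group alone). Of the 11 genes, 7 were higher and 4 lower against KO vehicle. The list's median difference with the agonist was 0.11 against WT vehicle and 0.08 against KO vehicle. In the knockout 0 passed, with 1 at an unadjusted p under 0.05, Bcl6 at -0.53 ± 0.15 (limma adjusted p = 0.919), followed by the diacylglycerol kinase gene Dgka at 0.23 ± 0.14.

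Genes linked to Nr4a factors in T cells included Pdcd1 (PD-1), Tnfrsf9 (4-1BB) and Ctla4, all receptors that tune T cell activation. Of 13 tested genes of 16, the agonist raised 2 against WT vehicle by group alone, Pdcd1 (log2 1.32 ± 0.19) and Tnfrsf9 (1.34 ± 0.23), beside 0.202% of all genes. These 2 and Ctla4 (0.75 ± 0.16, limma adjusted p = 0.0370) were higher in WT ATL1222 than in KO vehicle, beside 0.879% of all genes. In the knockout Pdcd1 fell (-1.57 ± 0.19, limma adjusted p = 0.00484), as did 0.0275% of all genes by group alone. The list's median was -0.08 in the knockout and 0.06 and 0.12 in the agonist comparisons. The early activation antigen Cd69 lay at 0.57 with the agonist against WT vehicle, the antigen receptor inhibitor Cd5 at 0.01 and Irf4, an early factor downstream of the receptor, at -0.34, and none of these passed.

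**Figure D4:**
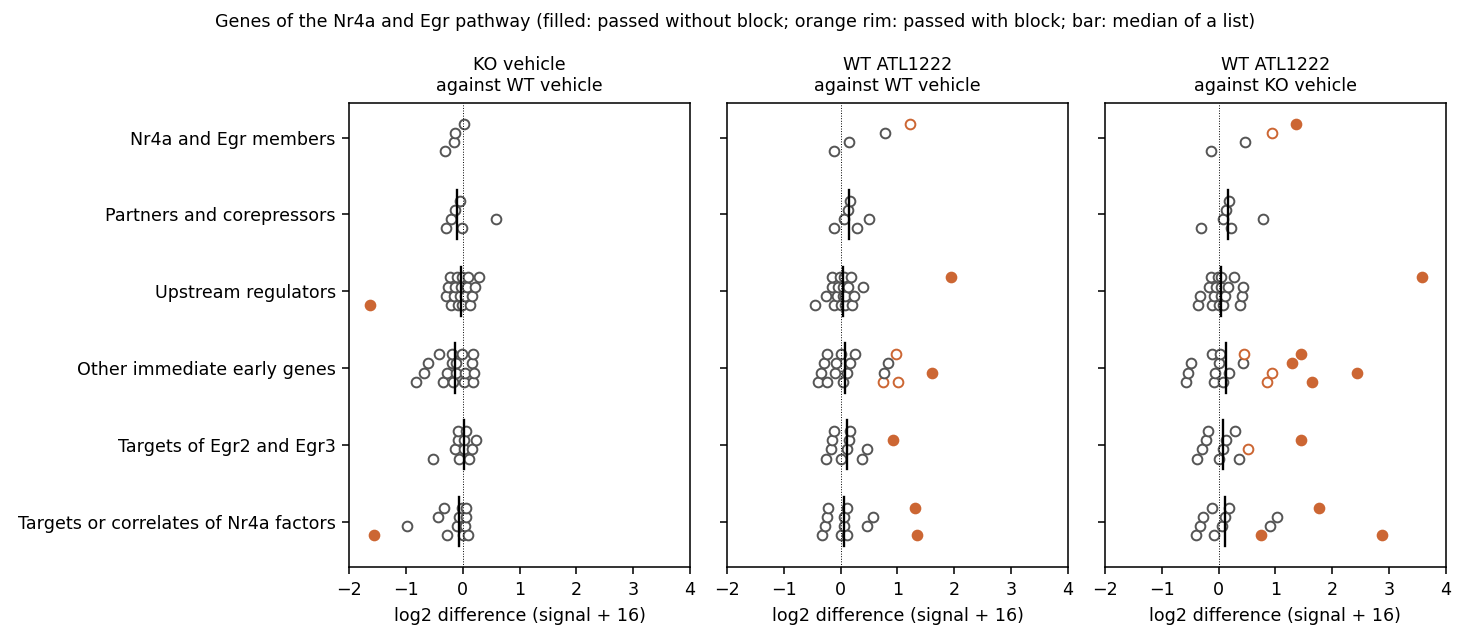
Log2 differences (x axis, signal + 16) of the tested Nr4a and Egr genes and of the 5 lists of related genes, in the 3 comparisons. Each circle is a gene, filled where it passed limma's adjusted p of 0.05 by group alone and with an orange rim where it passed with the replicate block, and bars are list medians. The filled points with the agonist include Crem, Fosl2, Bcl6, Pdcd1 and Tnfrsf9.

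The genes whose profile over the 6 arrays was most like that of each factor were found by Pearson correlation among the genes tested. For Nr4a3 these were Dusp4, a MAP kinase phosphatase gene (r = 0.995), Chst2 (0.995) and Plagl1 (0.991). For Nr4a2 they were Ralgapb (0.989), Xkr8 (0.988) and Ptpn5 (0.987). For Nr4a1 they were Trappc4 (0.994), Ndufv2 (0.993) and Endod1 (0.992), and for Egr1 Ldb3 (0.988), 1700018A04Rik (0.987) and Spata5 (0.983). These are descriptions over 6 arrays picked from 10915 genes, in which the arrays share the groups and the replicate deviation.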

How the data were processed

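The deposited values of the 45101 probe sets are linear array intensities that the authors made with GCOS, per the submitters' processing notes. Which version and algorithm it used is not given in the sources used here. The authors' scaling was kept: with the highest and lowest 2% left out, each array had a mean of 250.0.

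Here 64 control probe sets were left out, and 34945 of the rest had 1 gene symbol, 932 several and 9160 none listed. Symbols were updated through gene identifiers in RefSeq's table. Of a gene's probe sets, the one with the highest mean log2(signal + 16) stood for it. limma 3.58.1 in R 4.3.3 was used with a variance trend, and was run on simulated data. Their noise was independent between arrays, with no shared replicate deviation, so that run cannot show how the fits behave with one. With 2 arrays in each group, the smallest two-sided p of an exact permutation test is 0.33.

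The labels give replicates 1 and 2 in every group without saying what the numbers mark. The difference between replicates 1 and 2 correlated across genes between groups (r = 0.230 for WT and KO vehicle, 0.230 for WT vehicle and WT ATL1222, 0.147 for KO vehicle and WT ATL1222), and the spiked poly-A controls were brighter on replicate 1 by 1.18 to 2.02 times. The replicate number was therefore fitted as a block beside the fit by group alone. That pairing comes from the data and not from the labels.

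The 6 genes and the lists were chosen with earlier results of these data known. Named list genes were those past the threshold in either fit, up to 4 a list by smallest p, or else the 2 of smallest p. Other list genes were named after their values were seen. Alternatives were the pseudocount, filter, variance trend, probe sets, normalization, arrays in the fit, replicate block and leaving out each array.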

Additional observations from a re-analysis of the deposited data

How the results depend on the processing

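With the number of arrays limiting precision (2 a group), which genes passed depended on the processing, and the signs of Nr4a2 and Nr4a3 with the agonist did not: both were positive in all 18 alternatives, from 0.59 to 0.97 for Nr4a2 and 0.06 to 1.44 for Nr4a3 against WT vehicle, and 0.75 to 1.13 and 0.42 to 1.76 against KO vehicle. The lowest values of Nr4a3, 0.06 and 0.42, came from averaging its probe sets, 2 of which are dim. Nr4a3 passed in 5 of 18 alternatives against WT vehicle and 11 of 18 against KO vehicle, and Nr4a2 in 0 and 7. The replicate block changed the calls of Nr4a3 against WT vehicle and Nr4a2 against KO vehicle, and no other of the 4 tested genes.
Of the 4 tested genes, 0 passed in the knockout under any alternative. Against WT vehicle 0 passed, but 1 with the replicate block, with every probe set tested separately with the block (chosen after seeing the data) and with only the 4 arrays compared, and 0 to 1 when leaving out each array (1, Nr4a3, without KO vehicle replicate 1 or 2). Against KO vehicle 1 passed, but 2 with a pseudocount of 64, a filter of 60%, the replicate block, every probe set with the block, and the 4 arrays, and 0 with no filter, no variance trend, averaged probe sets, every probe set and quantile normalization, with 0 to 2 when leaving out each array (0 without KO vehicle replicate 2 or WT ATL1222 replicate 1, 2 without WT vehicle replicate 1 or 2).
Over all genes, the knockout count of 3 became 0 with no trend, averaged probe sets or every probe set, 9 with the replicate block, 11 with every probe set and the block, and 3 to 7 when leaving out each array. The count of 23 against WT vehicle became 14 with no filter, 36 with the 60% filter, 0 with no trend, 3 with averaged probe sets, 9 with every probe set, 35 after cyclic loess, 79 with the replicate block, 76 with every probe set and the block, 44 with the 4 arrays, and 5 to 39 when leaving out each array. The count of 109 against KO vehicle became 70 with no filter, 5 with no trend, 44 with averaged probe sets, 264 with the replicate block, 267 with every probe set and the block, and 42 to 133 when leaving out each array.
The signs that turned did so only when 1 array was left out. The knockout difference of Nr4a3 then ran from -0.55 to 0.26 (0.08 without WT vehicle replicate 1, 0.26 without KO vehicle replicate 2), that of Nr4a1 from -0.65 to 0.01 (0.01 without KO vehicle replicate 2) and that of Egr1 from -0.06 to 0.08 (-0.05 without WT vehicle replicate 1, -0.06 without KO vehicle replicate 1). The agonist difference against WT vehicle ran from -0.05 to 0.33 for Nr4a1 (-0.05 without WT vehicle replicate 2) and from -0.32 to 0.07 for Egr1, and against KO vehicle from -0.33 to 0.06 for Egr1 (0.07 and 0.06 without WT ATL1222 replicate 1). Except for the averaged probe sets, the cause of a change was not tested.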

Other observations

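Since each Nr4a promoter held 4 CRE cores, other genes with many cores were looked at as well, a choice made after seeing the promoters, and the Nr4a and Egr genes that prompted it were left out. Of 8840 other tested genes with a listed promoter, 151 had 3 or more cores before at least 1 start. With the agonist against WT vehicle, 55.0% of these 151 genes had a positive difference and their median log2 difference was 0.024, against 49.1% and -0.005 over all 8840. By group alone 1 of the 151 rose, Cebpb (0.662% against 0.192% of all 8840), and with the replicate block 2 rose (1.32% against 0.645%), Cebpb, a bZIP factor gene that cAMP induces in many cells, and Dusp1. Against KO vehicle these 2 rose by group alone (1.32% against 0.848%) and 4 with the block (2.65% against 1.80%), namely Dusp1, Cebpb, the elongation factor gene Ell2 and the kinase gene Sik3. The shares with the block over genes with 0, 1 and 2 cores were 1.77%, 1.78% and 1.90% in that comparison. In the knockout 0 passed by group alone and 1 with the block, Cebpb, which fell. No test was run on this grouping, and base composition and the number of listed starts were not taken into account.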
